A study of Homo sapiens and Mus musculus with 24 samples.

Results

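MicroRNA host gene lncRNAs are the transcripts from which many microRNA hairpins are cut. They were taken here as every gene whose GENCODE symbol begins with MIR and ends with HG, in upper or lower case. This rule, which used no measured value, found 93 of the 112096 genes in the files, 83 of 58381 human and 10 of 53715 mouse genes. A lncRNA class was given to 82 of the human and 10 of the mouse members, and the remaining human gene was the pseudogene MIR3171HG. On the same strand, 121 hairpins lay inside 77 human host genes (40 in exons, 81 in introns) and 21 inside the 10 mouse host genes (10 and 11).

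RNA that stayed in the aqueous phase of a TRIzol extraction was sequenced from UV-irradiated cells (UPA-seq) and from nonirradiated cells of 4 cell types, with 3 samples in each of 8 groups and 24 in all. HepG2 is a human hepatocellular carcinoma line, HEK293 a human embryonic kidney line and Neuro2a a mouse neuroblastoma line. The labels and the paper's results name HEK293, while its methods on cell culture name HEK293T, and the labels' name is used here. HippCulture is a primary culture of hippocampal neurons from mouse E16.5 embryos (C57/BL6NCr), treated with AraC to remove glial cells and then cultured on. The groups of a cell type differed by UV irradiation alone. Beyond the cell names and the AraC given above, the sources used here name no edited allele, transgene or other agent in them. The comparison asks which RNAs become fewer in the aqueous phase after UV, since RNA linked to protein by UV is carried to the interphase.

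The HepG2 libraries held 36573473 to 53511592 counts on genes and the other 18 libraries 6910907 to 11188033. In the nonirradiated samples, 5 of 5 hepatocyte markers exceeded 0.5 CPM in HepG2, 4 of 5 sympathoadrenal markers in Neuro2a and 6 of 6 hippocampal neuron markers in HippCulture, while no list was set for HEK293. The summed level of the neuron markers in HippCulture was 2391 to 2765 CPM without and 923 to 1253 CPM with irradiation. That of 3 of 3 astrocyte markers found there was 157 to 180.0 and 159 to 198 CPM, and the part of astrocytes in the results on HippCulture was not tested. The same neuron markers summed to 194 to 232 CPM without and 41.9 to 45.4 CPM with irradiation in Neuro2a. In bulk samples fewer cells of a type, less RNA per cell and loss of RNA from the aqueous phase cannot be told apart.

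A primary microRNA is cut in the nucleus by DROSHA and DGCR8, which release a hairpin from the host transcript. The hairpin is exported and cut again by DICER1, and a mature strand is loaded into an Argonaute protein, which it guides to messenger RNAs mainly through its seed, the bases from the second to the eighth. A hairpin in an intron can be cut out while the exons are joined into a lasting lncRNA, whereas a hairpin in an exon is released by breaking the transcript that carries it.

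Mature microRNAs of the host genes on which the results turn are shown for their seeds, given in capitals, so that host genes can be grouped by the seed they carry. They are read from RefSeq (GRCh38.p14), with 1 arm per hairpin. The hairpins of miR-17, miR-18a, miR-19a, miR-20a, miR-19b and miR-92a lie in this order in exonic sequence of MIR17HG (hg38 chr13:91347820-91354579, plus strand), with 4 seeds among the 6.
miR-17-5p: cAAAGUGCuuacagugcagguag
miR-20a-5p: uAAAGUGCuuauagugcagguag
miR-18a-5p: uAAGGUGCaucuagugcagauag
miR-19a-3p: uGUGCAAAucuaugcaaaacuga
miR-19b-3p: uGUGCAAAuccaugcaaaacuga
miR-92a-3p: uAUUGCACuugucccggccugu

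The let-7 seed was shared by microRNAs of MIRLET7BHG (let-7a and let-7b, exonic), MIRLET7IHG (let-7i, intronic), MIR99AHG (let-7c, intronic) and MIR4458HG (miR-4458, exonic).
let-7a-5p: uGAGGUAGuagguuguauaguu
let-7b-5p: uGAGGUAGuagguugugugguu
let-7c-5p: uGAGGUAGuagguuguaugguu
let-7i-5p: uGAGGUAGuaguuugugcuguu
miR-4458: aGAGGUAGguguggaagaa

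Also shown are the other microRNAs of MIR99AHG, with seeds of their own, and 3 pairs with a common seed, from the exons of MIR29B2CHG (miR-29b and miR-29c), the introns of MIR181A1HG and MIR181A2HG (miR-181a and miR-181b) and the exons of MIR497HG (miR-195 and miR-497).
miR-99a-5p: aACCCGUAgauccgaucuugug
miR-125b-5p: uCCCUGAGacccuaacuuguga
miR-29b-3p: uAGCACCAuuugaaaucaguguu
miR-29c-3p: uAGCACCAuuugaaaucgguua
miR-181a-5p: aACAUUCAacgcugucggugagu
miR-181b-5p: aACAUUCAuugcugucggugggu
miR-195-5p: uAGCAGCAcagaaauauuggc
miR-497-5p: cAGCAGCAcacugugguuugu

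Of 19 mature arms that had the same name in the human and the mouse host genes looked up (mouse build GRCm38.p6), 11 had identical letters and 17 an identical seed. The mouse sequences were read at the mouse hairpins, and 41 of 42 hairpins looked up in the 2 species were matched.

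More host genes were lower than higher upon UV irradiation in HepG2, where 21 of the 35 tested fell, 7 rose and 7 did not pass the test. Among all 20117 genes tested, 40.7% fell and 38.1% rose, and among other lncRNAs 49.8% fell and 23.5% rose. A gene was tested where its mean was at least 0.5 CPM (counts scaled by library size) in the nonirradiated samples of that cell type, and it was called changed at an adjusted p under 0.05 in edgeR. The median log2 fold change, irradiated over nonirradiated, was -0.83 over the host genes, -0.63 over 4108 other lncRNAs and -0.080 over all genes. For HEK293, 12 of 34 host genes fell and 3 rose, beside 26.4% and 24.2% of 20472 genes. Their median was -0.29, beside -0.28 over 3889 other lncRNAs and -0.077 over all genes. Of these other lncRNAs 25.8% fell and 14.6% rose. With the replicate number as a block, 14 fell and 7 rose in HEK293, beside 35.3% and 32.7% of all genes.

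Fewer host genes could be tested in mouse. Of 5 in Neuro2a, 1 fell, where 33.0% of 17425 genes did, and 0 rose in edgeR (0 at an unadjusted p under 0.05 and 0 in DESeq2), where 28.9% of genes did. Of 8 in HippCulture 3 fell and 2 rose, beside 25.9% and 26.1% of 18488 genes. Below the limit were 48 human members in HepG2 and 49 in HEK293, of which 18 and 12 had no read in any of the 6 samples. Of the mouse members 5 were below it in Neuro2a (1 with no read) and 2 in HippCulture (2 with no read).

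**Figure D1:**
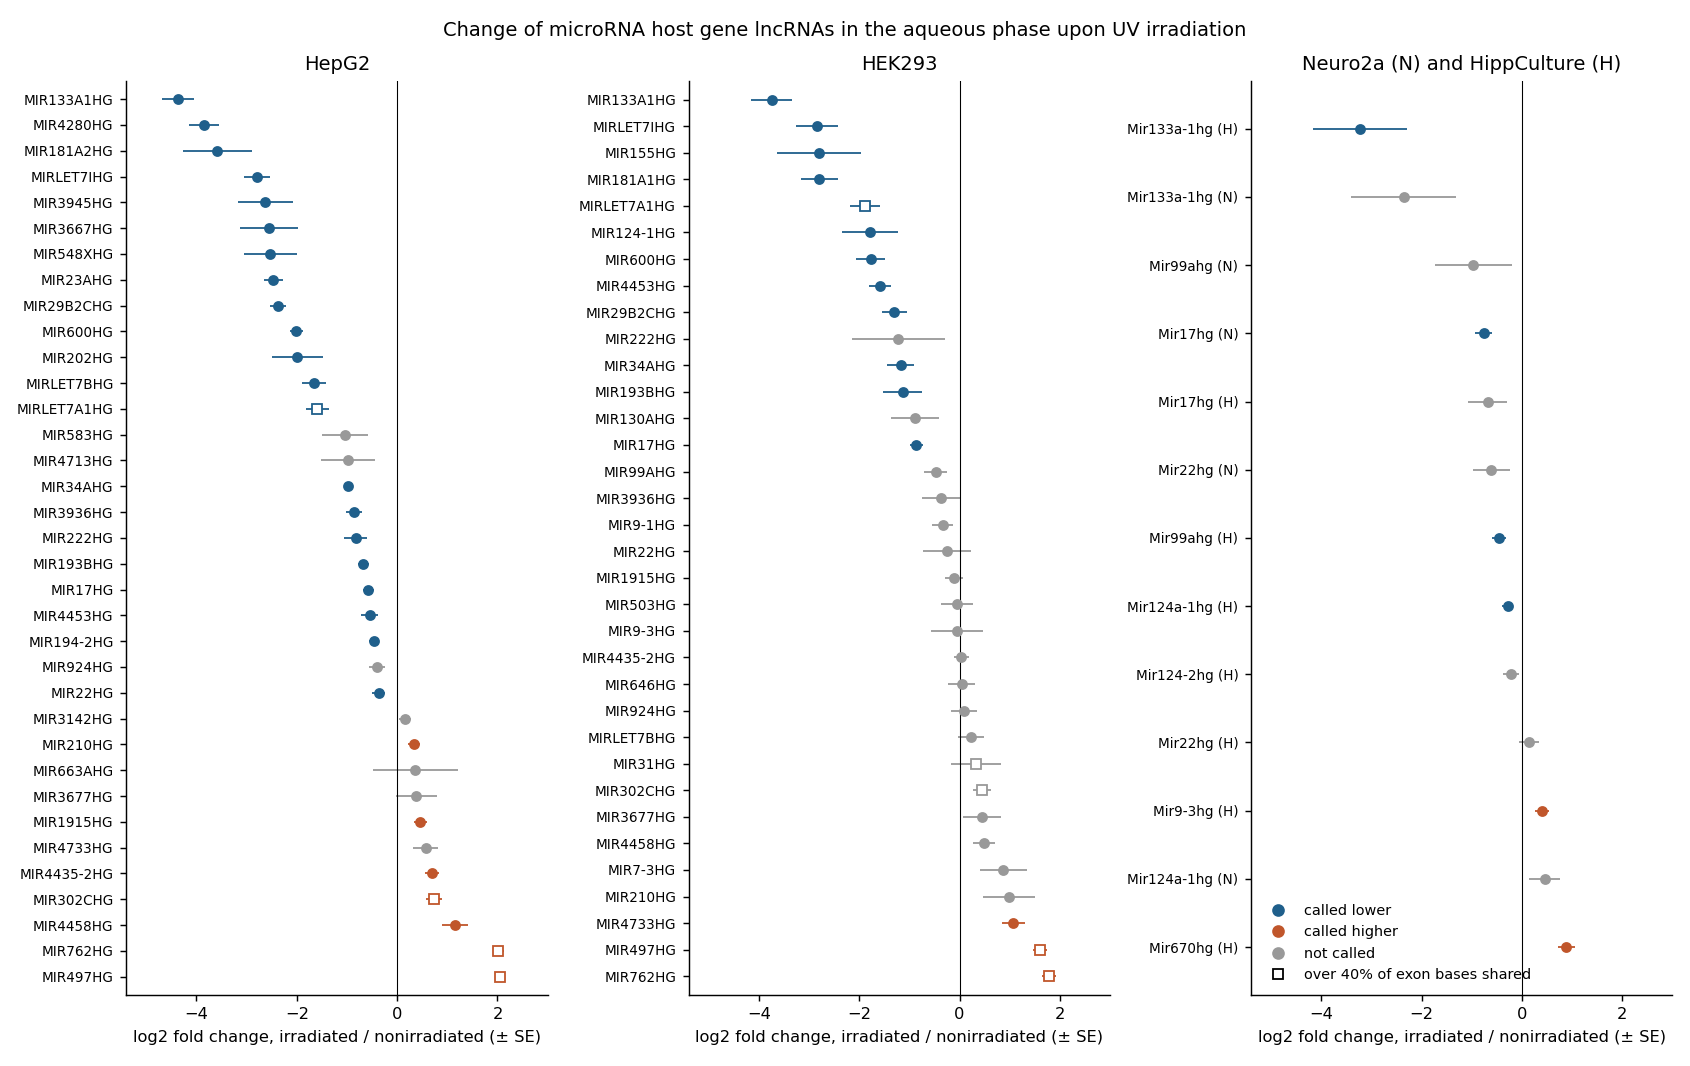
Log2 fold change, irradiated over nonirradiated, of each host gene tested (points, bars are ± SE), sorted within HepG2, HEK293 and the mouse cell types Neuro2a (N) and HippCulture (H). Blue marks genes called lower, orange genes called higher and grey the others, and open squares share over 40% of their exon bases with other genes. In HepG2 the values run from -4.37 for MIR133A1HG to 2.06 for MIR497HG.

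These fold changes are relative to the bulk of genes, to which TMM normalization sets the reference. With library sizes alone the median of all genes became -1.38 and -0.84 in the human lines HepG2 and HEK293, and -1.32 and -0.59 in the mouse cells Neuro2a and HippCulture. Of all genes called, 90.1%, 87.8%, 92.4% and 87.4% were then lower, in place of 51.7%, 52.1%, 53.3% and 49.8%. Host genes called lower and higher numbered 30 and 2, 18 and 2, 5 and 0, and 5 and 0 in the same order. A change of scaling shifts all genes of a cell type by nearly the same amount. The median of the host genes minus that of all genes is thus nearly fixed in advance. It went from -0.75 to -0.74 in HepG2 and from -0.21 to -0.21 in HEK293, which is no test of the result.

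The host genes of snoRNAs, which carry small RNAs of another kind in their introns, gave other counts. Of 24 such genes in HepG2 16 rose and 6 fell (median 1.10), and of 26 in HEK293 18 rose and 3 fell (median 1.21). Of 13 in Neuro2a 11 rose and 2 fell, and of 15 in HippCulture 10 rose and 3 fell. Among all genes 38.1%, 24.2%, 28.9% and 26.1% rose and 40.7%, 26.4%, 33.0% and 25.9% fell in the same order. Their median was -0.080 in HepG2 and -0.077 in HEK293. The difference from the microRNA host genes was not tested.

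Among host genes of clusters linked to proliferation, 4 of 4 fell in HepG2 (MIR17HG, MIR23AHG, MIR181A2HG and MIR222HG) and 2 of 4 in HEK293 (MIR17HG and MIR181A1HG), beside 40.7% and 26.4% of all genes. These are few genes, and neither this nor the other groups named here were tested against all genes. MIR17HG, which carries the oncogenic miR-17-92 cluster, was tested in all 4 cell types. Its level without irradiation was 17.9 ± 0.655 RPKM (SD, n = 3) in HEK293, 6.13 ± 0.755 in Neuro2a, 3.95 ± 0.505 in HepG2 and 0.566 ± 0.143 in HippCulture, where RPKM is counts per kilobase of exon, scaled like CPM. Within a species these levels differed, by -1.74 on the log2 scale for HepG2 minus HEK293 (SE 0.13, edgeR adjusted p = 4.37e-07) and by 3.31 for Neuro2a minus HippCulture (SE 0.19, adjusted p = 9.35e-12). The human and mouse levels were not compared by a test.

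The normalized counts of MIR17HG in HepG2 were 344, 412 and 426 without and 268, 251 and 276 with irradiation. In HEK293 they were 485, 478 and 477 without and 229.5, 287 and 274 with irradiation. All irradiated samples were below all nonirradiated samples in both lines. MIR17HG fell by 0.57 on the log2 scale in HepG2 (SE 0.11, edgeR adjusted p = 0.00135) and fell by 0.86 in HEK293 (SE 0.13, edgeR adjusted p = 0.000702). Mouse Mir17hg had 103, 129 and 111 without and 84.3, 57.1 and 58.7 with irradiation in Neuro2a, again without overlap, and fell by 0.76 (SE 0.18, edgeR adjusted p = 0.00183). In HippCulture it had few reads, 14.8, 14.1 and 10.4 against 8.01, 4.86 and 10.4. The lowest nonirradiated and the highest irradiated sample were equal as rounded. Its log2 fold change there of -0.69 (SE 0.38, edgeR adjusted p = 0.141) did not pass the test.

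**Figure D2:**
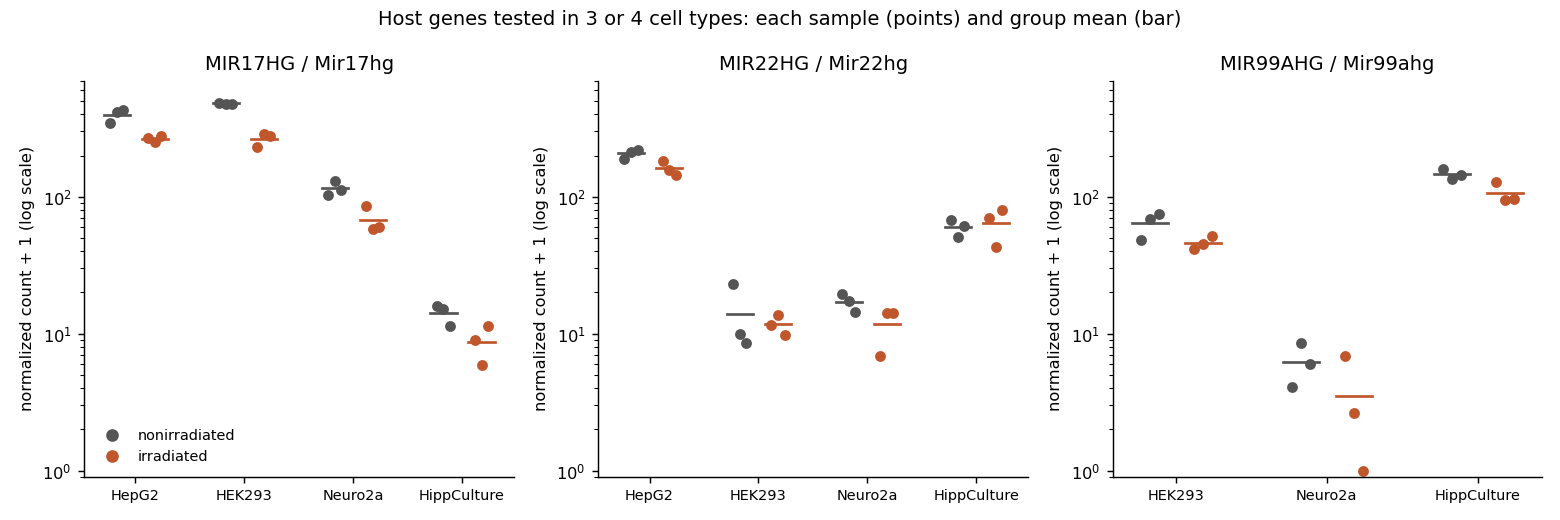
Normalized counts plus 1, on a log axis, of the host genes tested in 3 or 4 cell types, for each nonirradiated (grey) and irradiated (orange) sample, with a bar at the group mean. Counts are scaled within a cell type, so only the groups of the same cell type can be compared. The means of MIR17HG are 394 and 265 in HepG2 and 479.7 and 264 in HEK293, without overlap of the samples.

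Reads on the 6 hairpins of MIR17HG, whose sequences are given above, did not move alike. The hairpins lie at chr13:91350605-91351391, and as a read was counted for each gene it overlapped, a hairpin's count is a share of the host count that does not depend on the normalization. The MIR18A hairpin held 10, 22 and 28 reads in nonirradiated and 26, 22 and 21 in irradiated HepG2, which is 2.32%, 2.82% and 4.48% of the MIR17HG count against 13.5%, 14.9% and 11.2%. The shares did not overlap, and the mean was 3.21% ± 1.13 (SD, n = 3) without and 13.2% ± 1.83 with irradiation, 4.11 times as high. In HEK293 the MIR18A hairpin took 6.46%, 7.63% and 3.97% against 13.1%, 23.1% and 22.2%, and in Neuro2a the mouse Mir18 hairpin took 2.41%, 4.95% and 5.13% against 28.1%, 22.9% and 16.7%. Both were higher in every irradiated sample, 3.23 and 5.41 times by their means.

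The exact permutation test (two-sided) gave p = 0.1 for MIR18A or Mir18 in each of these lines, the smallest that 3 against 3 allows. The 95% Wilson interval of the highest nonirradiated share of MIR18A ended at 6.4% in HepG2 and 10.1% in HEK293, and that of the lowest irradiated share began at 7.46% and 8.62%. For Mir18 in Neuro2a the bounds were 9.79% and 7.87%. These intervals, which cover counting error only, were apart in HepG2 and overlapped in HEK293 and Neuro2a.

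The next hairpin, MIR19A, took 5.06%, 5.76% and 3.97% of the MIR17HG count in nonirradiated and 13.1%, 13.8% and 12.9% in irradiated HEK293. Mouse Mir19a took 3.61%, 3.6% and 3.21% against 17.5%, 28.6% and 13.9% in Neuro2a. The irradiated samples were higher throughout in these lines, 2.69 and 5.76 times by their means, whereas in HepG2 the share of MIR19A was 1.89% ± 0.997 and 2.08% ± 0.0563 (SD, n = 3) and the groups overlapped. Mir20a in Neuro2a also gained in share, from 3.40% to 10.9% by the means and without overlap, while MIR20A overlapped in both human lines. The first and the last hairpin did not gain in share in the human lines. MIR17 had 23 reads over the nonirradiated and 2 over the irradiated HepG2 samples, and MIR92A1 had 18 and 2.

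As genes of their own, relative to the bulk of genes, Mir18 rose by 1.68 (SE 0.47, edgeR adjusted p = 0.00702) and Mir19a by 1.69 (SE 0.44, adjusted p = 0.00419) in Neuro2a, where their host fell. For HEK293 the values were 0.88 (SE 0.35, edgeR adjusted p = 0.0593) for MIR18A and 0.57 (SE 0.25, adjusted p = 0.0894) for MIR19A, which did not pass. In HippCulture Mir18 had only 8 reads without and 1 with irradiation. Its mean share there went the other way, 17.1% against 3.33%, and was lower in every irradiated sample. Reads of released hairpins and of the primary transcript cannot be told apart, and MIR18A and MIR19A were singled out after their values were seen.

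**Figure D3:**
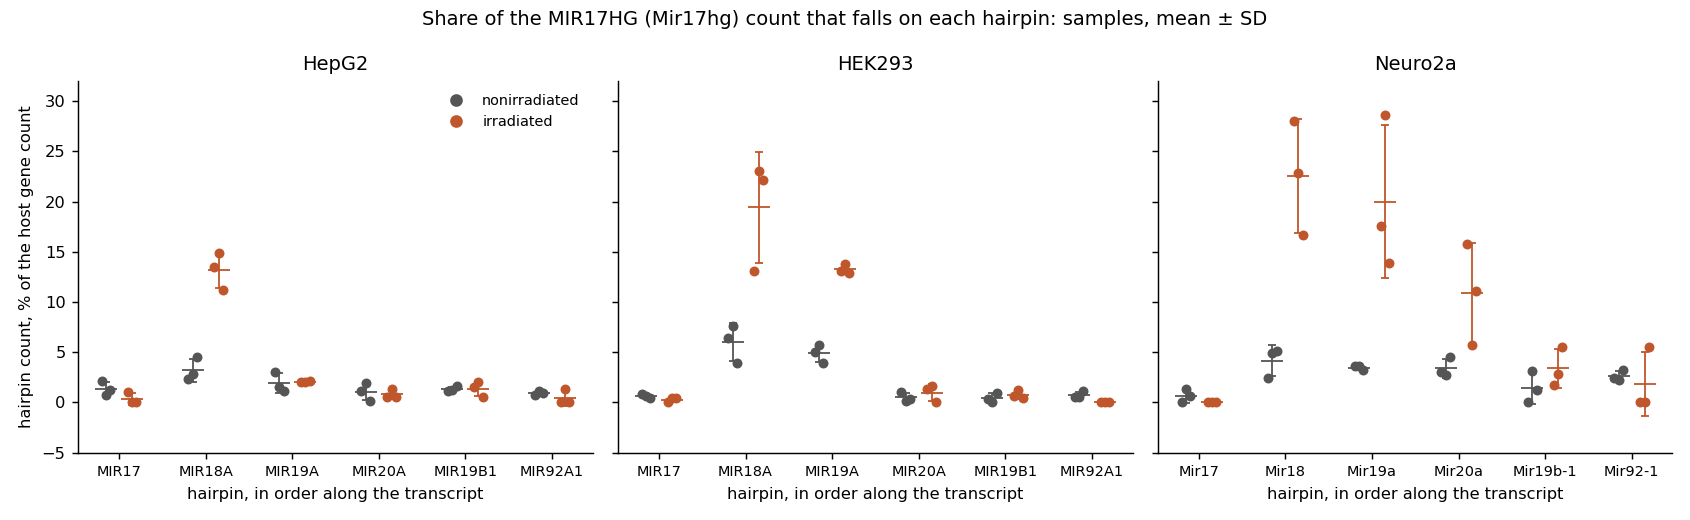
Share of the MIR17HG (mouse Mir17hg) count that falls on each hairpin, in percent, in the order of the transcript, for each nonirradiated (grey) and irradiated (orange) sample of 3 lines, with mean and SD as bars. The mean share of MIR18A or Mir18 is 3.21% and 13.2% in HepG2, 6.02% and 19.4% in HEK293 and 4.16% and 22.5% in Neuro2a.

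Outside this cluster few hairpins could be followed, as 18 of 121 human hairpins had at least 20 reads over the 6 samples in HepG2 and 5 in HEK293. The intronic hairpins of MIR181A2HG, whose sequences are shown above, had 30, 29 and 11 reads (MIR181A2) and 35, 19 and 12 reads (MIR181B2) without irradiation in HepG2. With irradiation a single read on MIR181A2 was left. The log2 fold change of the MIR181A2 hairpin was -4.65 (SE 1.01, edgeR adjusted p = 0.00239). The MIR34A hairpin, whose microRNA is induced by p53 and which was picked after its values were seen, took 0.482% ± 0.266 of the MIR34AHG count without and 2.22% ± 1.3 with irradiation in HepG2 (SD, n = 3), without overlap.

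Host genes of let-7 and of the miR-99, miR-100 and miR-125 microRNAs clustered with it, which restrain growth, fell in 3 of 3 cases in HepG2 and 2 of 4 in HEK293, beside 40.7% and 26.4% of all genes. MIRLET7A1HG, counted in both lines, shares 78.8% of its exon bases with a lncRNA on the opposite strand, as described below. MIRLET7IHG (hg38 chr12:62602752-62622213, plus strand), the host of let-7i, had 22, 34.8 and 33.3 without and 3, 2.32 and 6.64 with irradiation as normalized counts in HEK293, far apart in the groups. It fell by 2.84 there (SE 0.43, edgeR adjusted p = 0.000622) and fell by 2.80 in HepG2 (SE 0.26, edgeR adjusted p = 1.27e-05). LINC01465, a lncRNA on the opposite strand with 0.966% of the exon bases of MIRLET7IHG in common, had log2 fold changes of 0.84 (SE 0.16) in HepG2 and 0.32 (SE 0.29) in HEK293.

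MIRLET7BHG (chr22:46053869-46113928, plus strand), which carries let-7a and let-7b, had 120.4, 117 and 126 without and 48.6, 42.4 and 23.6 with irradiation as normalized counts in HepG2, far lower in all irradiated samples, and it fell by 1.66 (SE 0.24, edgeR adjusted p = 0.000189). In HEK293 it had 135, 83.4 and 96.2 against 152, 135 and 84.1, groups that overlapped, and the log2 fold change was 0.23 (SE 0.26, edgeR adjusted p = 0.496). That value was -0.54 with library sizes alone. The difference in the UV effect, HepG2 minus HEK293, was tested over their 12 samples and was -1.99 for MIRLET7BHG (SE 0.37, edgeR adjusted p = 0.00468), a call kept without any single sample. PRR34-AS1 and PRR34, 2 lncRNAs sharing 5.25% of its exon bases together with its hairpins, had means of 46 and 22.3 reads in nonirradiated HEK293 and 0 in HepG2. In HEK293 they rose by 1.27 (SE 0.26, edgeR adjusted p = 0.00307) and 1.11 (SE 0.27, adjusted p = 0.00803), and their part in the difference was not tested.

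MIR29B2CHG (chr1:207801518-207879096, minus strand), the host of miR-29b and miR-29c, microRNAs known to target collagen messages, had 376, 319 and 276 without and 58.4, 66.2 and 62.1 with irradiation as normalized counts in HepG2. In HEK293 it had 173, 114 and 138 against 78, 46.4 and 49.8. Every irradiated sample was below every nonirradiated sample in both lines. It fell by 2.38 in HepG2 (SE 0.16, edgeR adjusted p = 1.48e-06) and fell by 1.30 in HEK293 (SE 0.25, edgeR adjusted p = 0.00231). The difference in the UV effect was -1.18 (SE 0.30, edgeR adjusted p = 0.0292). It did not pass in 6 of 12 omissions, with adjusted p of 0.0562 to 0.0798. These were the first nonirradiated or any irradiated HepG2 sample and the second or the third nonirradiated HEK293 sample. With all samples and the replicate number as a block, the difference was -1.18 (SE 0.22, edgeR adjusted p = 0.00309).

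MIRLET7BHG and MIR29B2CHG were the 2 of 23 host genes with a negative difference between the human lines in edgeR, where 4.85% of all genes had one. 0 had a positive difference (2 at an unadjusted p under 0.05, 0 in DESeq2), where 3.10% of genes did. With the replicate number as a block, the added calls were MIR4435-2HG at 0.57 (edgeR adjusted p = 0.0376), MIR4453HG at 0.95 (adjusted p = 0.043) and MIR210HG at -0.77 (adjusted p = 0.0411). Between Neuro2a and HippCulture 0 of 5 host genes had a negative and 0 a positive difference in edgeR, where 16.1% and 8.39% of genes did. At an unadjusted p under 0.05 there were 0 and 1, and DESeq2 called 0 and 0. Of all genes called in this test, 65.7% were negative, and 51.8% with the size factors of DESeq2.

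**Figure D4:**
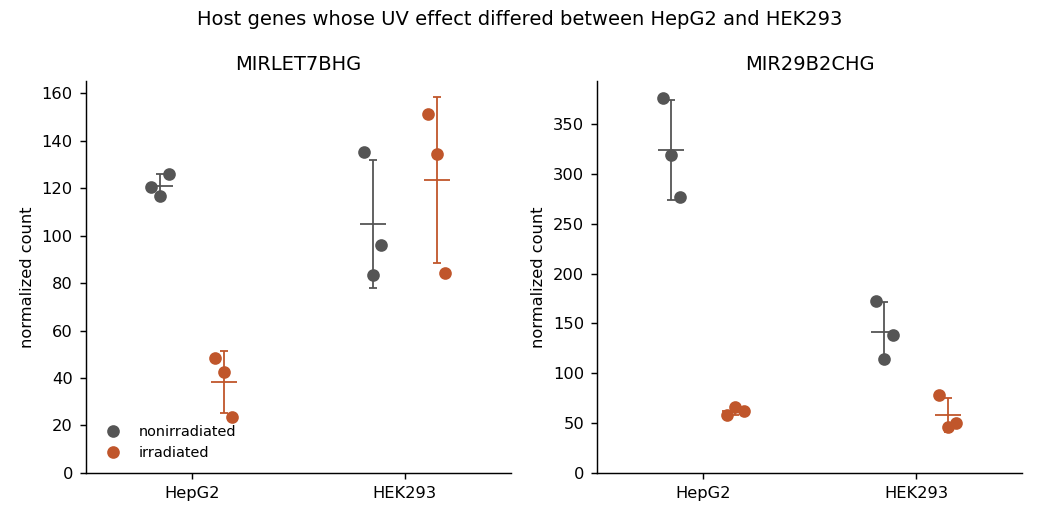
Normalized counts of MIRLET7BHG and MIR29B2CHG in each nonirradiated (grey) and irradiated (orange) sample of HepG2 and HEK293, with mean and SD as bars. Counts are scaled within a line. The means of MIRLET7BHG are 121 and 38.2 in HepG2 and 105 and 123 in HEK293.

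MIR99AHG (chr21:15928296-16645065, plus strand in human, mouse Mir99ahg in mm10, chr16:77236317-77691403, plus strand) carries miR-99a, let-7c and miR-125b in its introns. The study made a FISH probe for the mouse transcript, and its forward primer is shown to locate what was probed.
Mir99ahg forward primer: tcgcacaatcagtgtttgtc
The primer pair encloses 1102 bases at chr16:77556104-77557205 (GRCm38.p6), of which 1102 are exonic. Mir99ahg reached 1.57 ± 0.2 RPKM (SD, n = 3) in nonirradiated HippCulture and 0.0705 ± 0.0307 in Neuro2a, a log2 difference of -4.57, Neuro2a minus HippCulture (SE 0.22, edgeR adjusted p = 7.95e-13). Human MIR99AHG reached 0.728 ± 0.189 RPKM in HEK293 and had 1 read over all 6 HepG2 samples.

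In HippCulture Mir99ahg had 159.7, 135 and 142 without and 127, 94 and 95.6 with irradiation as normalized counts, without overlap. It fell by 0.46 (SE 0.14, edgeR adjusted p = 0.00913), but did not pass without the first nonirradiated (-0.36, adjusted p = 0.0699) or the third irradiated sample (-0.38, adjusted p = 0.0687). In HEK293 MIR99AHG had 47.4, 67.2 and 74.3 against 40.5, 44.1 and 50.9, groups that overlapped, with a log2 fold change of -0.47 (SE 0.23, edgeR adjusted p = 0.118). It passed with the replicate number as a block (-0.48, SE 0.18, edgeR adjusted p = 0.0174) and without the first nonirradiated sample (-0.64, adjusted p = 0.0353). In Neuro2a it had 3.09, 7.53 and 4.97 against 5.92, 1.63 and 0, with overlap and few reads, and the log2 fold change was -0.97 (SE 0.77, edgeR adjusted p = 0.291).

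Neural host genes were tested mainly in HippCulture, where 2 of 4 rose and 1 fell, beside 26.1% and 25.9% of all genes. These are few genes, and the part of the neuron markers given above was not tested. Mir670hg (mm10 chr2:94160636-94264918, minus strand), with the hairpins of miR-670 and miR-129 wholly or mostly in introns, had 52.2, 64.9 and 51.2 without and 83.5, 113 and 115 with irradiation, clearly apart. It rose by 0.89 (SE 0.17, edgeR adjusted p = 0.000146), and had 0.34 (adjusted p = 0.164) with library sizes alone. Mir9-3hg (chr7:79500026-79534403, plus strand), host of a copy of miR-9, known from neural progenitors, had 77.1, 102 and 82.4 against 111, 110.3 and 123, without overlap. Its rise of 0.40 (SE 0.14, edgeR adjusted p = 0.0222) did not pass without the first nonirradiated (adjusted p = 0.0743) or the third irradiated sample (adjusted p = 0.109), and turned to -0.15 with library sizes alone.

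Mir124a-1hg, host of a copy of the neuronal microRNA miR-124, had 229, 260.5 and 232 without and 204, 221 and 174 with irradiation as normalized counts in HippCulture. The groups were apart by little. It fell by 0.28 (SE 0.11, edgeR adjusted p = 0.04), and 5 of 6 omissions of a sample (all but the second irradiated) ended the call, with adjusted p of 0.0506 to 0.241. Human MIR124-1HG fell by 1.79 in HEK293 (SE 0.56, edgeR adjusted p = 0.025), which likewise failed in 5 of 6 omissions (all but the first nonirradiated, adjusted p 0.0565 to 0.0901). With all samples and the replicate number as a block, MIR124-1HG passed (-1.83, SE 0.43, edgeR adjusted p = 0.000218).

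Host genes linked to stress, p53 or hypoxia fell in 3 of 4 cases in HepG2 and 2 of 4 in HEK293, MIR29B2CHG included, beside 40.7% and 26.4% of all genes. MIR34AHG, host of the p53-induced miR-34a, fell by 0.97 in HepG2 (SE 0.081, edgeR adjusted p = 5.82e-06) and fell by 1.17 in HEK293 (SE 0.26, edgeR adjusted p = 0.00535). MIR210HG, host of the hypoxia-induced miR-210, rose by 0.33 in HepG2 (SE 0.12, edgeR adjusted p = 0.0244). That call was lost with the size factors of DESeq2 (0.27, adjusted p = 0.0591) and in 4 of 6 omissions (the second or the third nonirradiated, the first or the second irradiated sample, adjusted p 0.064 to 0.105), and the value was -0.97 with library sizes alone. In HEK293 MIR210HG had 13, 65 and 31 reads without and 21, 75 and 47 with irradiation, widely spread in both groups. The change of 0.98 (SE 0.52, edgeR adjusted p = 0.143) passed with the replicate block (adjusted p = 5.22e-05).

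MIR22HG, host of the widely expressed miR-22, was tested in all 4 cell types. In HepG2 it had 187, 213 and 219.7 without and 181, 156 and 143 with irradiation as normalized counts and fell by 0.37 (SE 0.13, edgeR adjusted p = 0.0292), a call lost in 4 of 6 omissions (the second or the third nonirradiated, the second or the third irradiated sample, adjusted p 0.0577 to 0.107). The groups overlapped in HEK293, with 22, 8.91 and 7.58 against 10.5, 12.8 and 8.85, and in HippCulture, with 67, 49.9 and 60.0 against 68.6, 42.2 and 79 for Mir22hg. The log2 fold changes were -0.24 (SE 0.48, edgeR adjusted p = 0.692) and 0.14 (SE 0.20, edgeR adjusted p = 0.566). In Neuro2a Mir22hg had 18.5, 16.2 and 13.5 against 5.92, 13.1 and 13, without overlap, and -0.61 (SE 0.37, edgeR adjusted p = 0.165). The sign turned to 0.38 in HEK293 without the first nonirradiated sample, and in HippCulture to -0.052 without the third irradiated sample and -0.40 with library sizes alone. The body of Tlcd2, on the same strand, covers 96.6% of Mir22hg.

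The host gene with the lowest log2 fold change in both human lines, MIR133A1HG, host of muscle microRNAs, had 114, 81.2 and 92.8 without and 4.17, 3.39 and 5.91 with irradiation as normalized counts in HepG2 and 25.4, 25.9 and 35.6 against 1.5, 2.32 and 2.21 in HEK293. The irradiated samples were far below the others in both lines, and it fell by 4.37 in HepG2 (SE 0.32, edgeR adjusted p = 2.42e-06) and fell by 3.75 in HEK293 (SE 0.41, edgeR adjusted p = 0.000124). Mouse Mir133a-1hg had 18 reads over the nonirradiated and 1 over the irradiated HippCulture samples, or 8.46% after normalization with an exact 95% interval of counting error from 0.203% to 53.6%. The body of MIB1, a ubiquitin ligase gene on the opposite strand, covers all of MIR133A1HG and itself fell by 0.78 (SE 0.11) in HepG2 and fell by 1.09 (SE 0.26) in HEK293. As no strand option was named for the counting, intronic reads of MIB1 and reads of MIR133A1HG cannot be told apart.

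MIR181A2HG (hg38 chr9:124658467-124698631, plus strand) lies in the same way inside NR6A1, a nuclear receptor gene on the opposite strand that fell by 1.38 (SE 0.075) in HepG2. MIR181A2HG had 48.6, 24.8 and 21.8 without and 4.17, 3.39 and 0 with irradiation there, without overlap, and fell by 3.58 (SE 0.69, edgeR adjusted p = 0.0012). MIR181A1HG (chr1:198807493-198937429, minus strand), which carries the same miR-181 seeds and shares no exon base with another gene, had 37.2, 25.1 and 25.8 without and 4.5, 3.48 and 4.43 with irradiation in HEK293 and fell by 2.80 (SE 0.37, edgeR adjusted p = 0.000306).

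MIR4280HG (chr5:87205408-87240145, minus strand) also shares no exon base with another gene. It had 565, 339.7 and 328 without and 33.3, 32.2 and 19.2 with irradiation as normalized counts in HepG2, without overlap, and fell by 3.85 (SE 0.30, edgeR adjusted p = 3.77e-06). It had no read in nonirradiated HEK293, so that its level of 4.26 RPKM in HepG2 was at least 45.6-fold higher than a floor of 3 counts per library. The other host genes called lower in HepG2 ranged from -2.63 for MIR3945HG to -0.47 for MIR194-2HG, and those in HEK293 from -2.80 for MIR155HG to -1.13 for MIR193BHG. MIR222HG had 115, 21 and 9 reads in the nonirradiated HEK293 samples, far from each other, and -1.22 (SE 0.93, edgeR adjusted p = 0.3). With the replicate block it had -1.05 (edgeR adjusted p = 0.00114).

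Among the other host genes that fell, MIR600HG had 325, 273 and 299.6 without and 77.8, 71.3 and 72.4 with irradiation as normalized counts in HepG2. All irradiated samples were far lower, and it fell by 2.01 (SE 0.13, edgeR adjusted p = 1.18e-06) in HepG2 and fell by 1.77 in HEK293 (SE 0.29, edgeR adjusted p = 0.00105). STRBP, a gene for an RNA-binding protein whose body on the same strand covers 99.9% of it, had log2 fold changes of 0.23 (SE 0.078) and -0.30 (SE 0.14). As MIR600HG has 1 exon block there, intronic reads of STRBP and reads of MIR600HG cannot be told apart. MIR23AHG is known as the host of the miR-23a, miR-27a and miR-24 cluster, but no hairpin lies wholly inside it as annotated here. It had 128, 114 and 128 without and 19.5, 23.8 and 23.6 with irradiation in HepG2, and the groups were far apart. It fell by 2.46 (SE 0.19, edgeR adjusted p = 3.29e-06). MIRLET7A1HG fell by 1.59 in HepG2 (SE 0.23, edgeR adjusted p = 0.00021) and fell by 1.89 in HEK293 (SE 0.29, edgeR adjusted p = 0.000754), beside -1.47 (SE 0.22) and -1.94 (SE 0.29) for LINC02603, a lncRNA on the opposite strand. Of the exon bases of MIRLET7A1HG 78.8% are shared with LINC02603, and the reads of these genes cannot be told apart. MIR155HG, host of the immune microRNA miR-155, had 24 reads over the nonirradiated and 2 over the irradiated HEK293 samples, or 12.8% after normalization (exact 95% interval of counting error, 1.47% to 51.6%). Its log2 fold change of -2.80 (SE 0.83, edgeR adjusted p = 0.0201) ranged from -5.78 to -2.22 over the omissions of a sample. Its call was lost without the third nonirradiated (adjusted p = 0.0536) or the second irradiated sample (adjusted p = 0.0688). With all samples and the replicate block it passed (-2.79, SE 0.88, edgeR adjusted p = 0.00473).

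MIR4453HG fell in both human lines. It had 159, 187 and 224 without and 150.1, 132 and 108 with irradiation as normalized counts in HepG2 and 59.2, 72.9 and 60.6 against 19.5, 19.7 and 24.3 in HEK293, without overlap in either. It fell by 0.55 in HepG2 (SE 0.17, edgeR adjusted p = 0.0175), a call lost without the third irradiated sample (adjusted p = 0.0729), and fell by 1.59 in HEK293 (SE 0.23, edgeR adjusted p = 0.000487). The difference in the UV effect, 0.94 (SE 0.29, edgeR adjusted p = 0.0655), did not pass, but did with the replicate block, as given above. MIR194-2HG fell by 0.47 in HepG2 (SE 0.10, edgeR adjusted p = 0.00218), as did MIR193BHG by a log2 fold change of -0.67 (SE 0.11, edgeR adjusted p = 0.00048), both of the liver and gut group. MIR4435-2HG and MIR1915HG rose in HepG2, by 0.69 (SE 0.14, edgeR adjusted p = 0.00153) and 0.46 (SE 0.13, adjusted p = 0.00954), and had -0.61 and -0.85 with library sizes alone. In HEK293 they had 0.039 (SE 0.15, edgeR adjusted p = 0.848) and -0.11 (SE 0.18, edgeR adjusted p = 0.625).

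The 2 host genes with the highest log2 fold changes in HepG2 and HEK293 shared much of their exons with protein-coding genes on the opposite strand. MIR497HG (chr17:7015818-7019659, minus strand) had 268, 294 and 267 without and 1238, 1181 and 1029 with irradiation as normalized counts in HepG2 and 149.7, 181 and 187 against 515, 551 and 509 in HEK293. All irradiated samples were higher, and it rose by 2.06 in HepG2 (SE 0.097, edgeR adjusted p = 3.34e-07) and rose by 1.602 in HEK293 (SE 0.14, edgeR adjusted p = 4.53e-05). MIR497HG has 49.2% of its exon bases in common with other genes, among them C17orf49, with log2 fold changes of 2.06 (SE 0.092) in HepG2 and 1.55 (SE 0.12) in HEK293. MIR762HG (chr16:30875222-30895220, plus strand) had 179, 149 and 162 without and 671, 708 and 603 with irradiation in HepG2 and 124, 109 and 120.5 against 408, 371 and 441 in HEK293, again higher in all irradiated samples. It rose by 2.02 in HepG2 (SE 0.11, edgeR adjusted p = 5.28e-07) and rose by 1.78 in HEK293 (SE 0.14, edgeR adjusted p = 3.77e-05), beside 2.34 (SE 0.070) and 1.83 (SE 0.15) for BCL7C, while 59.6% of its exon bases are shared. MIR302CHG, with 46.7% shared, had 0.74 (SE 0.17, edgeR adjusted p = 0.00289) in HepG2, beside 0.78 (SE 0.12) for LARP7, and -0.57 with library sizes alone. The reads of these host genes and of their partners cannot be told apart.

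**Figure D5:**
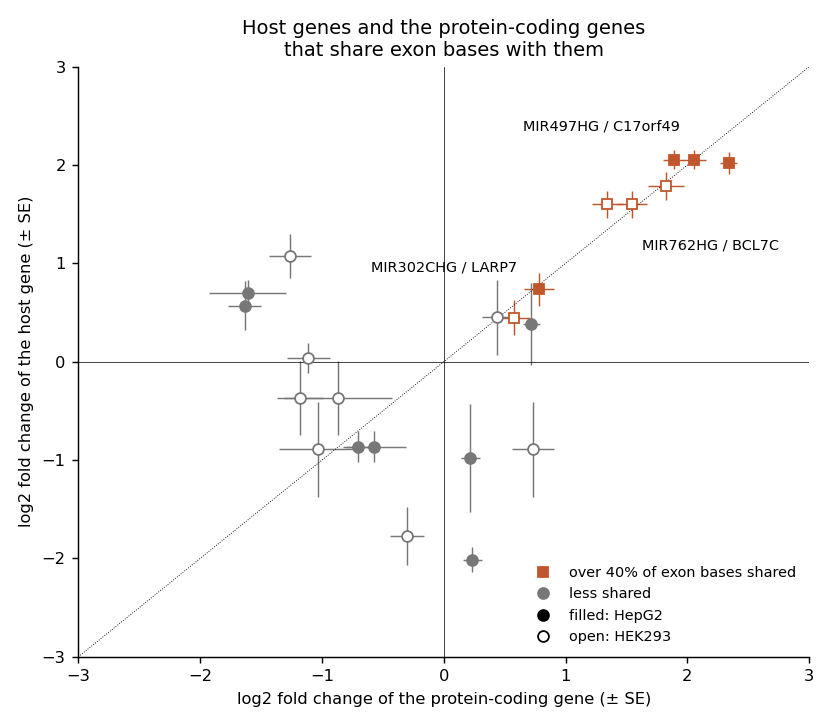
Log2 fold change of host genes against that of the protein-coding genes that share exon bases with them, with SE as bars, in HepG2 (filled) and HEK293 (open). Each point is a pair of genes, orange squares mark host genes with over 40% of their exon bases shared, and the dotted line is equality. The squares lie along the line, as MIR497HG at 2.06 and C17orf49 at 2.06 in HepG2, while the grey points scatter, as MIR4733HG at 1.07 and NF1 at -1.27 in HEK293.

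Host genes with less sharing also rose. MIR4458HG (chr5:8450743-8463095, plus strand), whose microRNA carries the let-7 seed, had 43.8, 83.3 and 98.9 without and 159.8, 182 and 164 with irradiation as normalized counts in HepG2, without overlap. It rose by 1.15 (SE 0.26, edgeR adjusted p = 0.00311), but had -0.16 with library sizes alone. In HEK293 MIR4458HG had 0.48 (SE 0.22, edgeR adjusted p = 0.0942), and passed with the replicate block (adjusted p = 0.00368). MIR4733HG (chr17:31090787-31095450, minus strand) had 19.5, 20.2 and 22 against 40.5, 45.3 and 44.3 in HEK293, where all irradiated samples were higher. It rose by 1.07 (SE 0.22, edgeR adjusted p = 0.00361), and had 0.31 (adjusted p = 0.308) with library sizes alone. NF1, on the opposite strand, shares exon bases with MIR4733HG (29.1% of them) and went the other way, at -1.27 (SE 0.17) in HEK293. Among host genes that share exon bases with no gene other than their own hairpins, 14 of 18 fell and 2 rose in HepG2. Of all genes there 40.7% fell and 38.1% rose. In HEK293 8 of 17 such host genes fell and 0 rose in edgeR (0 at an unadjusted p under 0.05 and 0 in DESeq2). Of all genes there 26.4% fell and 24.2% rose, and the differences were not tested. With the replicate block 10 of 17 fell in HEK293 and 2 rose, MIR210HG (adjusted p = 5.22e-05) and MIR7-3HG (0.85, edgeR adjusted p = 0.046). Of all genes 35.3% fell and 32.7% rose with that block.

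Of 23 host genes tested in both human lines, 9 fell in both (MIR17HG, MIR29B2CHG, MIR34AHG, MIR133A1HG, MIR193BHG, MIR600HG, MIR4453HG, MIRLET7A1HG and MIRLET7IHG) and 2 rose in both (MIR497HG and MIR762HG). 0 were called in opposite directions, and 20 had the same sign. The same counts over all genes tested in both lines were not made, so this agreement cannot be taken as particular to host genes. The paper reports a strong correlation of the UV fold changes of lncRNAs between HepG2 and HEK293. The lines share no sample. With the replicate block in HEK293, 10 fell in both, MIR222HG added, and 5 rose in both, with MIR302CHG, MIR4458HG and MIR210HG added. Without it, a further 9 were called in HepG2 alone and 1 in HEK293 alone, at unequal depth. The fall of MIR193BHG in HEK293 failed in 5 of 6 omissions (all but the second irradiated sample, adjusted p 0.0511 to 0.131). With all samples and the replicate block, MIR193BHG passed (-1.13, SE 0.38, edgeR adjusted p = 0.00758).

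Host genes were also split by where their hairpins lie. Host genes with an exonic hairpin fell in 10 of 16 cases in HepG2 (median -0.51), and those with intronic hairpins only in 8 of 16 (median -0.85). In HEK293 8 of 14 exonic hosts fell (median -1.02) and 3 of 19 intronic hosts (median -0.051). Host genes without an annotated hairpin inside them fell in 3 of 3 cases in HepG2 (MIR4280HG, MIRLET7A1HG and MIR23AHG, median -2.46). In HEK293 1 of 1 did (MIRLET7A1HG, -1.89). More of the exonic than of the intronic hosts fell in both lines, where 40.7% and 26.4% of all genes did, while the medians stood in opposite order. Neither difference was tested.

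The levels of single host genes without irradiation were also compared between cell types. Of 46 human host genes, 18 were lower and 16 higher in HepG2 than in HEK293, near the shares of all genes, 38.1% and 37.6%. These lines also differed in sequencing instrument and depth, which cannot be told apart from the cell line. MIR194-2HG, host of miR-192 and miR-194 of liver and gut epithelium, reached 2.88 ± 0.201 RPKM in HepG2 and 0.0863 ± 0.0293 in HEK293 (SD, n = 3), a log2 difference of 5.48 (SE 0.28, edgeR adjusted p = 1.36e-08). MIR503HG was the other way round, at 0.015 ± 0.0144 and 4.88 ± 1.72 RPKM (-7.78, SE 0.53, edgeR adjusted p = 1.52e-07). MIR124-1HG and MIR9-3HG had no read in nonirradiated HepG2, and their levels of 0.547 and 0.264 RPKM in HEK293 were at least 32.3-fold and 27.3-fold higher than the floor. MIR122HG, host of the liver microRNA miR-122, had 13 reads over the 6 HepG2 samples and was not tested.

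Of 8 mouse host genes, 6 were lower and 1 was higher in Neuro2a than in HippCulture, where 41.4% and 39.0% of all genes were. Mir124-2hg and Mir9-3hg, hosts of neural microRNAs, reached 2.4 ± 0.537 and 3.02 ± 0.619 RPKM in HippCulture (SD, n = 3) but 0.00744 ± 0.0129 and 0.0103 ± 0.0178 in Neuro2a. Mir17hg, described above, was the host gene with the higher level in Neuro2a.

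Genes encoding the proteins that process and use microRNAs were counted in the same way. In HepG2 14 of 22 fell and 4 rose, in HEK293 14 of 22 fell and 3 rose, in Neuro2a 17 of 22 fell and 3 rose, and of 21 tested in HippCulture 12 fell and 2 rose. Of all genes 40.7%, 26.4%, 33.0% and 25.9% fell in the same order and 38.1%, 24.2%, 28.9% and 26.1% rose, and the difference was not tested. DICER1, which cuts the hairpin loop, fell by 1.68 (SE 0.075) in HepG2 and fell by 2.04 (SE 0.28) in HEK293, and mouse Dicer1 fell by 1.42 (SE 0.13) in Neuro2a and fell by 0.58 (SE 0.10) in HippCulture. AGO2, an Argonaute, fell by 1.44 (SE 0.16) in HepG2 and fell by 1.43 (SE 0.26) in HEK293. TARBP2, a partner of DICER1, rose by 1.47 (SE 0.092) and 0.88 (SE 0.22), and RAN, the GTPase that drives hairpin export with XPO5, by 1.37 (SE 0.13) and 0.81 (SE 0.20).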

How the data were processed

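RNA of 24 samples (3 per group) was analysed. According to the labels, the study's methods and the file headers, the authors depleted ribosomal RNA, sequenced TruSeq libraries, aligned reads to hg38 or mm10 with TopHat2 2.1.1 and deposited raw counts, made with featureCounts 1.5.3 (HepG2) or 1.6.1 (others) on GENCODE exons, counting a read for every gene it overlaps and naming no strand option. The labels name a stranded kit and the methods another, so reads of overlapping genes were treated as inseparable.

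The raw counts were tested with edgeR 4.0.16 in R 4.3.3 (TMM, quasi-likelihood test, Benjamini-Hochberg over all genes tested) for genes with a mean of at least 0.5 CPM in the nonirradiated samples of a cell type, or of either cell type in comparisons of them. The fitting was tested on simulated data. SE is the log2 fold change over the square root of F. Normalized counts are counts over TMM library sizes, times their geometric mean in the cell type. Hairpin shares were compared by exact permutation. Tools also used were DESeq2 1.42.0, Python 3.11.15, scipy 1.17.1 and pandas 2.3.3. P-values measure the spread between these samples, called biological triplicates in the study, and their number limits precision.

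Members and gene lists were chosen with earlier results of these data known. Values for every sample are given for members tested in 3 or 4 cell types, the 3 lowest and 3 highest called per cell type (mean of at least 20 counts in a group), MIR99AHG and members whose UV effect differed between cell types. Gene classes are from GENCODE 44 and M21, matched for 98.9% of human and 99.8% of mouse genes. Deviations from group means correlated between samples of the same replicate number by 0.50, 0.24 and 0.31 in HEK293, where the numbers were taken as pairs, but by over 0.1 in at most 1 pair of the other cell types.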

Additional observations from a re-analysis of the deposited data

Results flagged for a closer look

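The UV effect on 2 host genes differed between HepG2 and HEK293 in the test of the difference itself. For MIRLET7BHG the log2 fold change was -1.66 in HepG2 and 0.23 in HEK293, and the difference in the joint fit of the 12 samples, -1.99 (SE 0.37, edgeR adjusted p = 0.00468), held in all 12 fits without a single sample. For MIR29B2CHG they were -2.38 and -1.30, and the difference of -1.18 (SE 0.30, edgeR adjusted p = 0.0292) failed in 6 of 12 such fits. With all samples and the replicate block it passed (SE 0.22, edgeR adjusted p = 0.00309). The libraries of HepG2 were deeper and were sequenced on another instrument, which cannot be told apart from the cell line.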

How the results depend on the processing

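With library size alone the median of the host genes became -2.13 (HepG2), -1.04 (HEK293), -1.95 (Neuro2a) and -0.80 (HippCulture), 2 HepG2 and 0 HippCulture members were higher, 5 Neuro2a and 5 HippCulture members lower, and the mouse difference called 1 lower. It reversed MIR4435-2HG (-0.61), MIR302CHG (-0.57), MIR4458HG (-0.16), MIR1915HG (-0.85) and MIR210HG (-0.97) in HepG2, MIRLET7BHG (-0.54) in HEK293, and Mir9-3hg (-0.15) and Mir22hg (-0.40) in HippCulture. The scaling reference itself moves here. Keeping only members that share no exon base left fewer genes, with 7 lower, 2 higher and a median of -2.53 in HepG2, 2, 0 and -0.23 in HEK293, 0 lower and -2.36 in Neuro2a, and 1, 1 and -1.41 in HippCulture, 0 negative human differences, levels of 6 lower and 6 higher in human, and 1 and 0 in mouse. Allowing their own hairpins, an alternative chosen after seeing the data, gave 2 higher and a median of -0.75 in HepG2, 0 and -0.86 in HEK293, 1 negative human difference and 8 lower human levels. At least 10 counts in every sample, which tests fewer genes, gave medians of -0.70, -0.070 and -0.29 in the 3 lines, 5 lower in HEK293, 1 higher in HippCulture, human levels of 9 lower and 7 higher, and 2 lower in mouse. No filter gave medians of -1.02, -0.49 and -1.53 and 1 negative mouse difference, as did a mean of 0.5 CPM over all samples (1; HepG2 median -0.66). DESeq2 gave HepG2 medians of -0.90 (size factors) and -0.90 (its test) and 1 higher in HippCulture. The replicate block gave 7 higher and a median of -0.25 in HEK293 and 2 positive human differences. In the other cell types samples share only a number, and there the block moved MIR4733HG in HepG2 past the threshold, and the UV effect of no other member. In HEK293 it moved those named in the report and MIR302CHG. Leaving out 1 sample gave medians of -0.93 to -0.67 in HepG2 and -0.42 to -0.20 in HEK293, 1 to 2 lower in Neuro2a, 1 to 3 lower and 1 to 2 higher in HippCulture, 1 to 2 negative and 0 to 1 positive human differences and 0 to 1 and 0 to 1 in mouse. It reversed MIR22HG in HEK293 (range -0.52 to 0.38) and Mir22hg in HippCulture (-0.052 to 0.32). Of the single genes, 553 of these fits kept direction and call and 48 lost the call. Where not stated, the cause was not tested. The part of depth in the counts of calls was not tested.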
